A study of Mus musculus with 2 samples.

Results

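The genes examined here encode the TCF/LEF transcription factors and the proteins that control beta-catenin. They were chosen by gene name, with earlier results of these data known. The arrays carry 34844 gene names, and all 10 members (Tcf7, Lef1, Tcf7l1, Tcf7l2, Ctnnb1, Axin1, Axin2, Apc, Gsk3b and Ctnnbip1) are among them, with 18 of the 55680 usable non-control probes. The cells were P5424, a mouse T-cell line that the labels give as a Rag2 and P53 knockout, left untreated in RPMI1640 medium that held 2-mercaptoethanol (0.1 mM) and fetal bovine serum (10%). Rag2 is part of the recombinase of antigen receptor genes and P53 is a tumour suppressor. The 2 one-colour arrays form 1 group, replicate 1 and replicate 2, so no cell without these knockouts and no second condition stood beside them, and no test between groups was possible. No label tells if the cultures were separate, both arrays lie on 1 slide, and their spread may be technical.

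TCF/LEF factors bind DNA through an HMG box and act as repressors or activators, depending on whether Groucho (TLE) proteins or beta-catenin are bound to them. Without a Wnt signal, a destruction complex built on the scaffolds Axin and APC lets the kinases CK1 and GSK3 phosphorylate beta-catenin, which is then degraded. A Wnt signal stops the complex, and beta-catenin enters the nucleus. In the thymus TCF1, the product of Tcf7, starts the T-cell programme in early progenitors, and TCF1 and LEF1 act together through beta-selection and the CD4 and CD8 double-positive stage.

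Each probe is a 60-base oligonucleotide. The Tcf7l2 and Axin2 probes are printed because their calls split within the gene, so that the call depends on which probe is read. The Lef1 and Tcf7 probes are printed because these factors were detected with every probe, and the Gsk3b probe as an example from a kinase also detected with every probe. Apc, whose calls split too, is named only. Positions are those of the array design on mouse build mm9, and the base number is where the probe starts in its transcript. Of the Tcf7l2 probes, that at base 727 lies at chr19:55817272-55817331, that at base 1724 at chr19:55994029-55994088 and that at base 2644 at chr19:56006638-56006697, all on the plus strand. The Axin2 probes lie at chr11:108803927-108803986 (base 1971) and chr11:108812034-108812093 (base 4196), plus strand. The Lef1 probe at base 2160 (chr3:130907851-130926012) and the Gsk3b probe at base 2092 (chr16:38187987-38191632) have intervals of 18162 and 3646 bases for 60 bases of probe, so each is split over more than 1 genomic block, as a probe across a splice junction is. The Tcf7 probes lie on the minus strand at chr11:52066738-52066797 (base 1546) and chr11:52066114-52066173 (base 2170). Sequences run 5′ to 3′ in the sense of the transcript. The 4 longer ones are whole probes, the others are the first 30 bases, and no base is marked by capitals.
Tcf7l2 base 727: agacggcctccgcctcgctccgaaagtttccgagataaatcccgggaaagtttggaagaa
Tcf7l2 base 1724: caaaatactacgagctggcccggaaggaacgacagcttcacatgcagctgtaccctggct
Tcf7l2 base 2644: tgttatgtagttcggatagcttagttttaa
Axin2 base 1971: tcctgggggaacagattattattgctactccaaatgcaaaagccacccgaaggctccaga
Axin2 base 4196: cttggtacaataattattgtaattaagaga
Gsk3b base 2092: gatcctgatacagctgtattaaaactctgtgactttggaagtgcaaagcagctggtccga
Lef1 base 2160: gtacaggtcccagaatgacagctgcctaca
Lef1 base 2407: actgcaagcgccgacttccaaaaagaaagc
Tcf7 base 1546: ccaatacttcttggaccaagaatacctggt
Tcf7 base 2170: ttttttcattctcgctgtagatagcctgaa

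A probe was called detected if, on each of the 2 arrays, the scanner software had marked its signal as well above background, and a gene if that held for any of its probes. By this rule 9 of the 10 members were detected, against 9691 of 17944 protein-coding gene names (54.0%) and 46.1% of all gene names. Of the members' probes, 13 of 18 were detected, against 40.1% of all probes. The members were picked as known genes of the T lineage and of a widely used pathway, so these shares describe the list and single out nothing about it. Signals are in intensity units of the processed signal, and a value is the log2 signal relative to the 75th percentile of its own array, given as mean ± SD (n = 2 arrays). That percentile was 324 units on replicate 1 and 299 on replicate 2. Probes differ in how well they hybridise, so no level is ranked against that of another probe. RNA was taken from the bulk culture, in which fewer expressing cells and less RNA per cell cannot be told apart.

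The T-cell identity given by the labels was checked on markers. All 10 T-lineage markers were detected, with Cd3e and Cd3g, chains of the T-cell receptor complex, at 8.31 ± 0.17 and 7.17 ± 0.03. Markers of other cell types were detected in 1 of 5 cases for B cells (Cd79a at -2.74 ± 0.11), 3 of 5 for myeloid cells (Csf1r at -1.61 ± 0.63, Cd14 at -2.76 ± 0.13 and Itgam, an integrin chain, at 4.40 ± 0.17, and not Lyz2), 1 of 4 for erythroid cells (Klf1, and neither Hba-a1 nor Hbb-b1) and 1 of 7 for stroma (Pecam1 at 0.52 ± 0.09, and neither Foxn1 nor Krt5). Their part in the values of the members was not tested. On replicate 1, 42.5% of probes passed the software's background mark, and on replicate 2, 41.2% did. The highest of 308 negative control spots lay at 15.1 units on replicate 1 and at 101 on replicate 2, where the next highest lay at 17.6.

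Of the 4 TCF/LEF factors, Tcf7 and Lef1 were detected with every probe, Tcf7l2 with 1 of 3 and Tcf7l1 with none. Tcf7 had signals of 14076 units on replicate 1 and 13428 on replicate 2 at base 2170, and of 5896 and 6621 at base 1546. The software's own error for these spots was 1408 and 1343 units at base 2170. The values were 5.47 ± 0.04 and 4.33 ± 0.20, so both probes stood far above every negative control spot and the arrays lay close together. Lef1, the partner of TCF1 in thymocytes and itself a Wnt target in other tissues, had 37636 units on replicate 1 and 24540 on replicate 2 at base 2160. At base 2407 it had 62086 and 43384 units, and the values were 6.61 ± 0.35 and 7.38 ± 0.28. Both Lef1 probes were thus brighter on replicate 1, by more than the software's error of 6209 and 4338 units for the spots at base 2407.

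Tcf7l2 encodes TCF4 of the beta-catenin pathway, the main TCF of the intestinal epithelium, and must not be confused with the unrelated E-protein gene Tcf4. Its probe at base 727 had 52.8 units on replicate 1 and 57.4 on replicate 2, a value of -2.50 ± 0.17, and was detected. At base 1724 the signals were 29.2 and 14.1 units, not well above background, although positive and significant on both arrays. At base 2644 they were 6.79 and 8.05 units, near the negative control medians of 6.55 and 7.50. The software's errors for the spots at base 2644 were 6.81 and 8.07 units, about as large as the signals, which thus give no level. The probes at bases 727 and 1724 list the same 4 RefSeq transcripts, and the probe at base 2644 shares 1 transcript with each of them. So the calls differed even between probes that list the same transcripts. Tcf7l1 encodes TCF3 of this family, best known as a repressor in embryonic stem cells. Its single probe had 20.6 units on replicate 1 and 14.2 on replicate 2, positive and significant on both arrays but not well above background. Both signals lay above the negative control medians, and only that of replicate 1 above the highest negative control spot of its array. So weak a signal, from a single probe, gives no level for Tcf7l1 and sets no bound on its RNA.

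Beta-catenin itself and its small inhibitor were detected with nearly equal signals on both arrays. Ctnnb1, which encodes beta-catenin, has 1 probe printed on 2 spots (base 3271, chr9:120869274-120869333). The spots gave 3565 and 3621 units on replicate 1 and 3181 and 3399 on replicate 2, a value of 3.47 ± 0.01. Ctnnbip1 encodes ICAT, which binds beta-catenin and blocks its contact with TCF factors. It had 781 units on replicate 1 and 716 on replicate 2 (base 680, chr4:148938558-148938617), a value of 1.26 ± 0.00. After scaling, the difference between the arrays was -0.01 on the log2 scale for both (replicate 2 minus replicate 1).

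**Figure D1:**
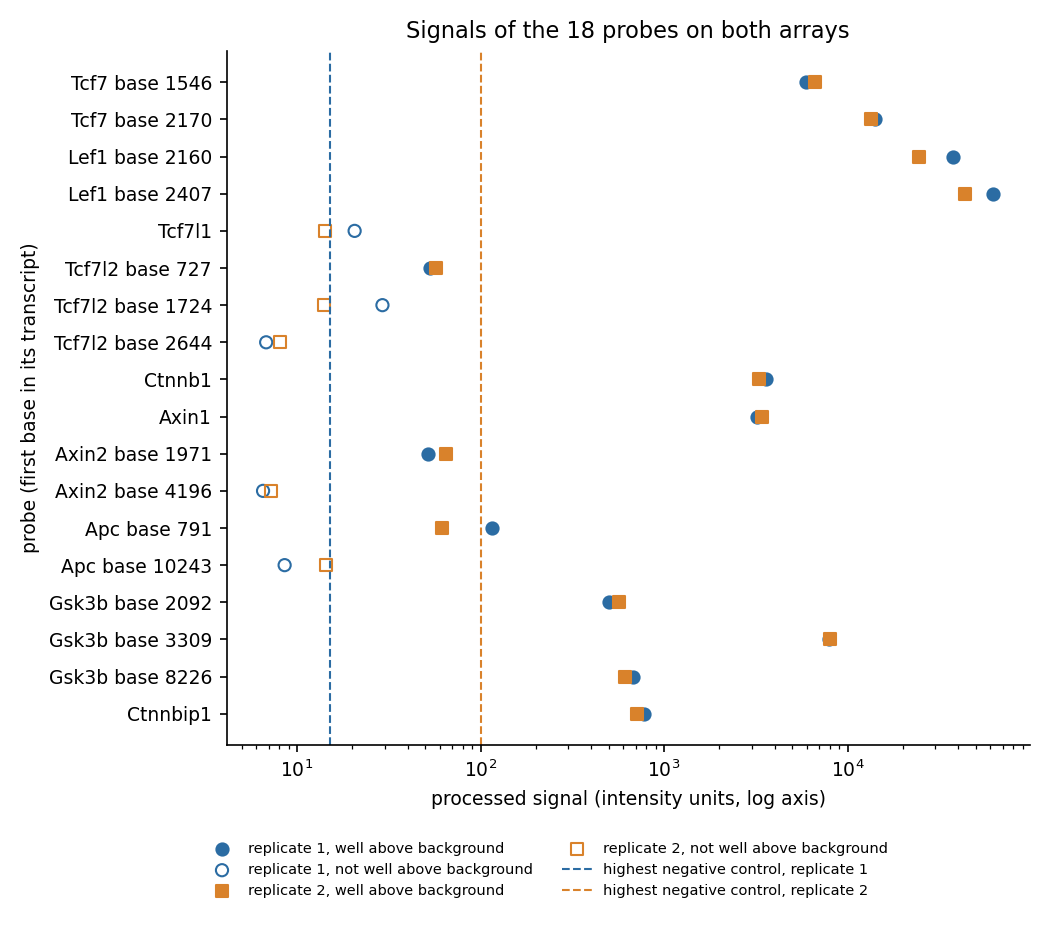
Processed signal of each of the 18 member probes (rows, with the first base in the transcript where a gene has several probes) on replicate 1 (circles) and replicate 2 (squares), in intensity units on a log axis. Filled symbols are probes well above background on both arrays and open symbols the others, and dashed lines mark the highest negative control spot, 15.1 units on replicate 1 and 101 on replicate 2. Both Lef1 probes sit further left on replicate 2, and the detected probes of Tcf7l2, Axin2 and, on replicate 2, Apc sit left of the replicate 2 line.

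The genes of the destruction complex were all detected, but Axin2 and Apc each with 1 probe only. Axin1, the scaffold that is present in most tissues, had 3224 units on replicate 1 and 3405 on replicate 2 (base 3020, chr17:26332106-26332165), a value of 3.41 ± 0.14. Gsk3b, the kinase that marks beta-catenin for degradation, was detected with all 3 probes. Its signals were 499 and 571 units at base 2092, 7932 and 7982 at base 3309 and 677 and 612 at base 8226, with replicate 1 first in each pair. The values were 0.78 ± 0.22, 4.68 ± 0.09 and 1.05 ± 0.02, and the arrays lay within 0.31 of each other at every one of the 3 probes.

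Axin2 is the Axin homologue that beta-catenin and TCF factors switch on themselves, and its RNA is widely used as a readout of the pathway. Its probe at base 1971 had 51.9 units on replicate 1 and 65.2 on replicate 2, a value of -2.42 ± 0.32, and was detected. Its probe at base 4196 had 6.53 and 7.24 units, close to the negative control medians, and was neither well above background nor positive and significant. The software's errors for the spots at base 4196 were 6.55 and 7.26 units, about as large as the signals, which thus give no level. Apc, the large scaffold lost in intestinal tumours, was detected at base 791 with 115 units on replicate 1 and 62.0 on replicate 2, a value of -1.88 ± 0.55. Its other probe, at base 10243, was printed on 2 spots with 9.97 and 7.16 units on replicate 1 and 15.1 and 13.8 on replicate 2, not well above background. The Apc probe at base 791 is likewise split, over an interval of 4076 bases on chromosome 18, and its sequence is not shown.

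The detected probes of Tcf7l2, Axin2 and Apc came closest to the negative controls. All 3 lay above the highest negative control spot of replicate 1 and above every negative control spot of replicate 2 but the highest. Measured against the highest spot on both arrays, 6 members (Tcf7, Lef1, Ctnnb1, Axin1, Gsk3b and Ctnnbip1) passed, against 48.5% of protein-coding gene names. The same 6 members passed when a gene counted only if no probe of it failed, against 46.7%. Of the 6 members with several probes, 3 (Tcf7l2, Axin2 and Apc) had some detected and some not, against 1316 of 5939 protein-coding gene names with several probes (22.2%).

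The undetected probes were in part those with few G and C bases. The Axin2 probe at base 4196 has 20.0% GC, the Tcf7l2 probe at base 2644 has 23.3% and the Tcf7l1 probe has 26.7%, and none of these 3 was detected. Over the whole array 20.8% of 865 probes with under 30% GC were detected, and 40.4% of 54815 probes at or above it, a limit set after the values were seen. Of the members' 15 probes at or above 30% GC, 13 were detected. The 2 exceptions were the Tcf7l2 probe at base 1724 with 55% GC and the Apc probe at base 10243 with 45%. The part of base composition in the missing signals was not tested.

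**Figure D2:**
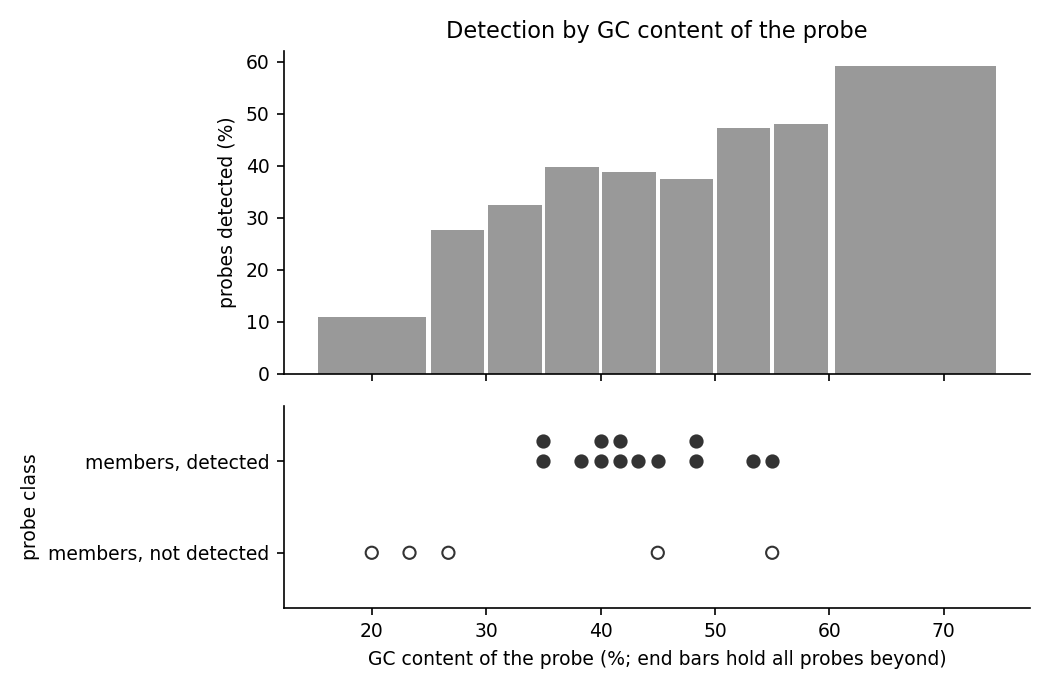
Share of all probes of the array that were well above background on both arrays (bars, %) by GC content of the probe (%), and below it the members' probes by GC content (filled, detected; open, not detected; probes of equal GC are stacked). The bars reach 59.2% at 60% GC and above, and the 3 member probes under 30% GC are all open.

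By the median difference, the members lay slightly further apart between the arrays than detected probes as a whole. Across their 13 detected probes the median absolute difference was 0.24 on the log2 scale, against 0.18 over all 22321 detected probes. Scaled by the array medians, the members' median was 0.22. The median difference of all detected probes moved to -0.23 there, so this order was not kept. None of the 9 detected members was over 2-fold apart, against just 0.965% of all detected gene names, so this count says little. Under scaling by the array medians 1 member was, Apc at -1.01, and under normexp background correction Apc was at -0.36. Apc at base 791 differed most, by -0.78 (replicate 2 minus replicate 1), and 3.3% of all detected probes were at least as far apart. The Lef1 probes differed by -0.50 at base 2160 and -0.40 at base 2407, as did 11.8% and 18.7% of detected probes or more. Of the 3 members with several detected probes, Lef1 alone had all of them lower on replicate 2. Both stayed lower under each of the 5 scalings that were run, with differences from -0.73 to -0.46 and from -0.63 to -0.36. The Tcf7 probes were 0.05 and 0.29 higher on replicate 2, and the first of these changed sign to -0.18 when arrays were scaled by their medians, which moved the median of all detected probes to -0.23. Axin2 at base 1971 was 0.45 higher on replicate 2, as far apart as 15.1% of detected probes or more. With 1 array per replicate none of these differences could be tested.

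**Figure D3:**
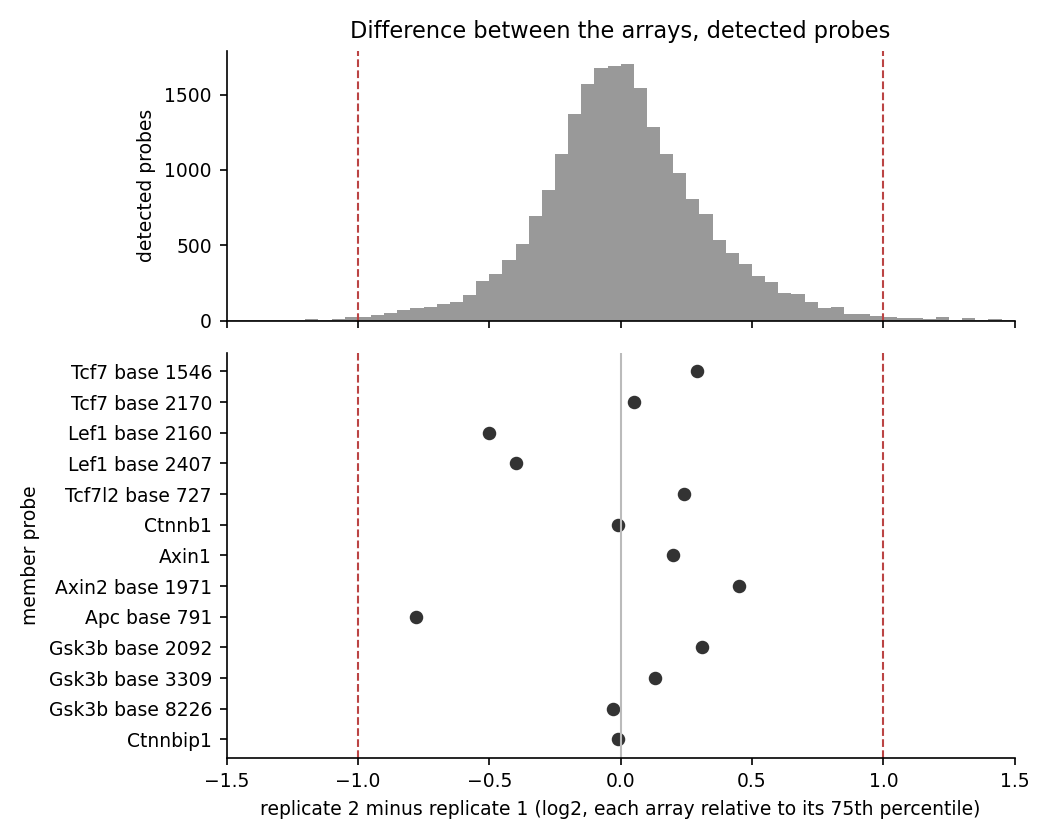
Difference between the arrays, replicate 2 minus replicate 1, in log2 units after each array was set relative to its 75th percentile: above, a histogram of the detected probes, with the axis limited to 1.5 either side of 0; below, the members' detected probes. Dashed lines mark 2-fold, no member probe lies beyond them, and Apc (-0.78) and both Lef1 probes (-0.50 and -0.40) lie furthest to the left.

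Other genes of the Wnt and beta-catenin pathway were counted on 11 lists. Of 118 genes on them 62 were detected (52.5%), close to the 54.0% of protein-coding gene names. Ligands, receptors and secreted or surface antagonists together had 13 of 51 detected (25.5%). The destruction complex, coactivators and corepressors had 28 of 32 (87.5%). The secretion genes (2 of 2), Dishevelled and its inhibitors (6 of 8) and the other catenins and cadherins (4 of 12) belong to neither total. Nor do the T-cell genes known to depend on TCF1 or beta-catenin (5 of 6). The general targets (6 of 12) are in neither, except Lgr5, Rnf43, Znrf3 and Dkk1, which are also on the antagonist list. These totals were formed after the values were seen, and the shares were not tested against each other.

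Of 19 Wnt ligands 3 were detected, Wnt1 at 0.25 ± 0.05 with 1 of its 2 probes, Wnt5b at 3.46 ± 0.08 and Wnt8b at 1.0 ± 0.16, while Wnt2 and Wnt2b were not. Porcn, which attaches the lipid that Wnt proteins need, and Wls, which carries them to the surface, were both detected, at -1.71 ± 0.13 and 2.32 ± 0.07. Of 15 receptors and co-receptors 6 were detected, Fzd5 at -1.64 ± 0.28, Fzd6 at -0.10 ± 0.16, Fzd7 at -1.43 ± 0.08 with 1 of its 2 probes, Fzd10 at 2.16 ± 0.13 and the co-receptors Lrp5 at 1.17 ± 0.02 and Lrp6 at 3.45 ± 0.08, while Fzd1 and Fzd2 were not. Of 17 antagonists and R-spondin receptors 4 were detected. They were Kremen1 at 4.17 ± 0.04, Kremen2 at -1.25 ± 1.14, and the ubiquitin ligases Rnf43 and Znrf3, which remove Frizzled receptors, at 0.10 ± 0.15 and -0.33 ± 0.02. Kremen2 was over 2-fold apart between the arrays, with 77.9 units on replicate 1 and 219 on replicate 2. Dkk1 and Dkk2, secreted blockers of the LRP co-receptors, were not well above background.

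The Dishevelled genes, which relay the receptor signal, were all detected. Dvl1 had 2.47 ± 0.22, Dvl2 had 3.19 ± 0.12 (1 of 2 probes) and Dvl3 had 2.80 ± 0.12. Their list had 6 of 8, without Nkd1 and Dact2. All 14 other genes of the destruction complex and of beta-catenin turnover were detected, including the GSK3 paralogue Gsk3a at 6.42 ± 0.03, Apc2 at -2.57 ± 0.31 and the CK1 kinase Csnk1a1 at 3.61 ± 0.11. Of 8 coactivators 7 were detected, among them Bcl9 at 0.86 ± 0.53 (1 of 2 probes), Bcl9l at -0.82 ± 0.50 and Pygo2 at 4.43 ± 0.09. Pygo1, the other Pygopus gene, was not. Of 10 corepressors and inhibitors 7 were detected. Among the Groucho genes, Tle1 was detected with 1 of 4 probes (-2.23 ± 0.23), Tle2 with 1 of 2 (1.05 ± 0.05) and Tle3 with its single probe (5.62 ± 0.27), and Tle4 was not. Ctbp2 and Sox17 were not well above background either.

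Of 12 genes on the list of other catenins and cadherins 4 were detected. They were Ctnna1, which encodes alpha-catenin, at 5.19 ± 0.02, Ctnnal1 at -0.54 ± 0.10 (1 of 2 probes), Ctnnd2 at -2.39 ± 0.21 and Ctnnbl1 at 6.88 ± 0.05. Ctnnal1 and Ctnnbl1 are catenin-like by name, and their part in the pathway was not tested. Jup encodes gamma-catenin, the closest relative of beta-catenin. It was well above background on 1 array only, with 23.2 units on replicate 1 and 46.5 on replicate 2, and Ctnna2 was so on neither.

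Genes that the pathway is known to switch on were detected in part. Of 12 general Wnt targets 6 were detected, among them Myc at 4.71 ± 0.07, Ccnd1 (cyclin D1) at 1.02 ± 0.22 and Rnf43, while Sp5 and Nkd1 were not. Many of these targets answer to other signals too, and no Wnt-treated or beta-catenin-deficient sample was measured. Of 6 T-cell genes known to depend on TCF1 or beta-catenin 5 were detected. Gata3 and Bcl11b, the factors that TCF1 helps to switch on in early T cells, had 4.14 ± 0.09 and 6.05 ± 0.01. The survival gene Bcl2l1, which encodes BCL-XL, had 6.23 ± 0.01. Eomes, a factor of memory and cytotoxic T cells, was not well above background with either of its 2 probes.

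**Figure D4:**
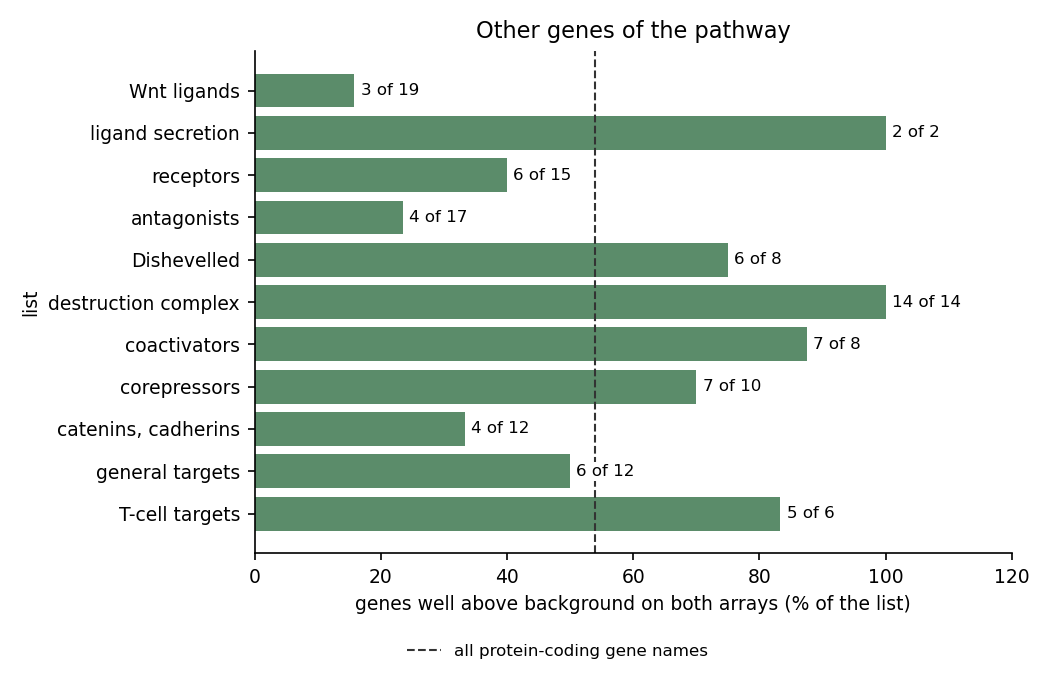
Share of the genes on each of the 11 pathway lists that were well above background on both arrays (bars, % of the list, with counts), in order from ligands to targets. The dashed line is the share of all protein-coding gene names, 54.0%. Ligands (3 of 19) and antagonists (4 of 17) lie left of the line, as do receptors, catenins and cadherins, and general targets, and all 14 destruction-complex genes were detected.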

How the data were processed

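Total RNA (200 ng) was amplified and labelled with Cy3, per the labels' protocols. The intensity values come from Agilent Feature Extraction 10.5.1.1, per the submitters' processing notes. Per the file headers, that software took off a background surface, corrected a multiplicative trend across the array and gave surrogates for signals near background. The authors' deposited files also hold a p-value per spot, computed by the software per the file headers, for equality with background, and 0 or 1 marks for signals well above background or positive and significant. The authors also deposited a table of log2 values, whose offset and centring are unknown. Its slope against log2 scanner signal was 0.997 and 1.005 and its column medians were both 5.18.

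Control spots and spots marked as outliers (182 and 186, none of a member) were left out. No spot was saturated. Each probe's value is its spots' mean log2 processed signal less the 75th percentile of all probes of that array. A probe with several spots needed 50% of them well above background. Where a list gene had several detected probes, the one with the highest mean stood for it. Genes keep the names in the files, of which 17944 are protein-coding symbols in RefSeq. Python 3.11.15 and, for normexp (offset 50), limma 3.58.1 were used. Scaling and the 2-fold cut were tested on simulated data, and the detection rule was not.

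Members, lists, the 30% GC limit and the printed sequences were chosen with earlier results of these data known. All members and probes are described, and from each pathway list, in fixed order, the first 3 detected genes, the first 2 others and every gene of a class of 4 or fewer, and from marker lists the first 2 of each, of which 1 is not reported here. Itgam, Fzd10, Lrp5 and Lrp6 were named outside this rule, after their values were seen. Alternatives covered detection, scaling, background correction, the probe standing for a gene and leaving out each array. The number of arrays limits the precision.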

Additional observations from a re-analysis of the deposited data

How the results depend on the processing

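The 9 detected members were the same with detection on at least 1 array, without replicate 1 and without replicate 2, and all 10 passed as positive and significant, as did 69.2% of protein-coding gene names. Detected pathway genes numbered 51 to 77 under the alternatives, against 62. Without replicate 1 or 2 there were 63. The median absolute difference of the members' probes ran from 0.17 to 0.30. Scaling by the array median left 1 member over 2-fold apart, Apc at -1.01, against 0 otherwise, and normexp moved Apc to -0.36. Other reference levels shift the means of the 2 arrays alike for all probes, by about -3.51 over detected probes and 3.99 over the median. They do not shift both arrays equally. The median difference (replicate 2 minus replicate 1) of detected probes became 0.03 over detected probes and -0.23 over the median. With the mean over detected probes, 3 members moved by more than 1 SD, by up to -2.51. No paired analysis was possible because both arrays belong to 1 group. Signals of Tcf7l2, Axin2 and Apc lie within the range of the negative controls of replicate 2, which limits these calls.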
